A study of Mus musculus with 9 samples.

Results

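The mitochondrial genome and its copies on chromosome 1 were followed in mammary tumors of mice with and without HSP72, the stress-inducible chaperone encoded by Hspa1a and Hspa1b. The members were the 37 genes of the count table whose symbol begins with mt- and 7 annotated chromosome 1 copies, 44 of 55403 genes in all. Of the mitochondrial genes, 13 encode proteins, 2 encode the ribosomal RNAs of the mitochondrial ribosome and 22 encode tRNAs. The KO group held 5 tumors of the genotype Hspa1a/Hspa1b-/- from mice 120 to 125 days old, and the WT group held 4 tumors of the genotype Hspa1a/Hspa1b+/+ from mice 122 to 132 days old. All 9 were tumors of female C57BL/6 mice that carried the human MUC1 transgene (MUC1.Tg) and MMTV-PyMT, a transgene that expresses the polyoma middle T oncogene in mammary epithelium. Tissue was dissociated with enzymes before RNA extraction, ribosomal RNA was depleted, and stranded libraries were read as paired ends of 50 cycles. The labels give ages but no animal numbers. The ages show that the tumors of each group came from several mice, and whether samples of the same age came from different mice is not stated, so the spread behind each p-value is that between these 9 samples and may be technical in part.

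Mitochondrial DNA is a circle that is transcribed from both strands into long precursors. In most places a tRNA stands between neighbouring genes, and excision of the tRNAs releases the mRNAs and rRNAs. The mRNAs encode core subunits of the respiratory chain and of ATP synthase, whose other subunits are encoded in the nucleus and imported. Pieces of mitochondrial DNA have also been inserted into nuclear chromosomes, and a recent insertion can be so similar to its source that a short read cannot be placed in only 1 of them.

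Each library had 11500920 to 19136317 fragments, and 4410399 to 6221181 of them fell on genes. The targeted gene Hspa1b stood at 0 to 0.657 CPM (counts scaled to a common library size) in KO and 28.7 to 81.1 CPM in WT, and Hspa1a at 0.163 to 1.64 CPM in KO and 3.99 to 9.77 CPM in WT. PyMT stood at 8575 to 15448 CPM in KO and 7294 to 10167 CPM in WT. The 8 markers of luminal epithelium, among them Epcam and Krt8, were all detected and summed to 3117 to 3799 CPM in KO and 3139 to 6794 CPM in WT. A count of 0 in a library allowed a level of up to 0.482 to 0.680 CPM, which is 3 counts and allows for counting error alone.

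The chromosome 1 copies formed 1 stretch of mitochondrial sequence. They lay on the minus strand of chromosome 1 between 24611535 and 24616197 (GRCm38), in the same order as their source genes between 6381 and 11042 of the mitochondrial genome. GENCODE annotates each as an unprocessed pseudogene. Gm29216 is a copy of the end of mt-Co1, Gm28661 of mt-Co2, Gm10925 of mt-Atp6, Gm28437 of mt-Co3, Gm28438 of mt-Nd3, Gm10222 of mt-Nd4l and Gm28439 of the first 876 bases of mt-Nd4. For 5 of the 7 every base of the copy was identical to its source. The first 60 bases of mt-Co2, a cytochrome c oxidase subunit gene, and of its copy are shown as an example of such a pair, with no difference to mark. All sequences are GENCODE M21 transcripts (GRCm38), written 5′ to 3′.
mt-Co2: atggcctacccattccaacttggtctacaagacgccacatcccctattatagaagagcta
Gm28661: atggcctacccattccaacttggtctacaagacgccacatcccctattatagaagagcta

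Gm29216 differed from mt-Co1 at 6 of 492 bases, all within the first 13 bases of the copy. The first 60 bases of the copied stretch are shown because all differences lie in them. Capitals mark the bases that differ.
mt-Co1: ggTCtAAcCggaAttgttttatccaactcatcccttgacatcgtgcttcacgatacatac
Gm29216: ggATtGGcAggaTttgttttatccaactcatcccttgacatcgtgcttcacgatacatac

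The pair on which the comparison of genotypes turned was mt-Nd3 (chrM:9459-9806, plus strand), which encodes a small core subunit of complex I, and Gm28438 (chr1:24612775-24613119, minus strand). Over the 345 bases of the copy they differed at 1 base, T3C, with positions counted from 1 at the first base of mt-Nd3 and the mitochondrial base written first. This base is position 9461 of the mitochondrial genome and position 24613117 of chromosome 1. The first 120 bases of both are shown, with the differing base in capitals, and the rest of the copy was identical to its source.
mt-Nd3: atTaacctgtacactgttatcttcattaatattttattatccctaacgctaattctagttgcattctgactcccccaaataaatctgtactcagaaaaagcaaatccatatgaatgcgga
Gm28438: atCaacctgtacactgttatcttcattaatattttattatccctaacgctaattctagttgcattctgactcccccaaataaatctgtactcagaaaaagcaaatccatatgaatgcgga

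Of 296 windows of 50 bases in Gm28438, 3 differed from mt-Nd3, and these were the windows that contained the base of T3C. A fragment could therefore be assigned to only 1 of this pair through that base or through sequence beyond the gene's ends. At this end the surroundings differ in annotation. The tRNA gene mt-Tg ends at 9458, directly before mt-Nd3, whereas the 69 bases between Gm28438 and Gm28437 hold no annotated gene. At the other end the stretch between Gm28438 and Gm10222 was 74 bases long on chromosome 1, against 73 bases between the matching positions of the mitochondrial genome, where mt-Tr lies.

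The genes wholly inside the copied stretch were nearly empty of counts in both genotypes. The 6 protein-coding genes that lie wholly inside it, mt-Co2, mt-Atp8, mt-Atp6, mt-Co3, mt-Nd3 and mt-Nd4l, together had 9 counts in the KO libraries and 7 in the WT libraries. The 7 that lie partly or wholly outside it together had 2016898 counts in KO and 1431474 in WT. All 5 tRNA genes inside it, mt-Ts1, mt-Td, mt-Tk, mt-Tg and mt-Tr, had 0 counts in every library. Of the 17 tRNA genes outside it, 8 also had 0 counts in every library. The mRNA levels of these 6 genes cannot be read from the table, which lists multimapping fragments as a separate entry, and the part of multimapping in their low counts was not tested. Of the 50-base windows of mt-Co2, mt-Atp6, mt-Co3, mt-Nd3 and mt-Nd4l, at most 6 per gene were absent from the chromosome 1 copies. None of the 155 windows of mt-Atp8 lay in an annotated copy, and the chromosome 1 bases between Gm10925 and Gm28661, where a copy of it would lie, were not read here. Of the 1496 windows of mt-Co1, 430 lay in a chromosome 1 copy, and 335 of the rest were shared with genes outside the 7 copies. Such genes also shared 81 of the 989 windows of mt-Nd2, 135 of the 1775 of mt-Nd5 and 16 of the 1533 of mt-Rnr2. Fragments from these mitochondrial genes too could therefore be placed at more than 1 site.

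**Figure D1:**
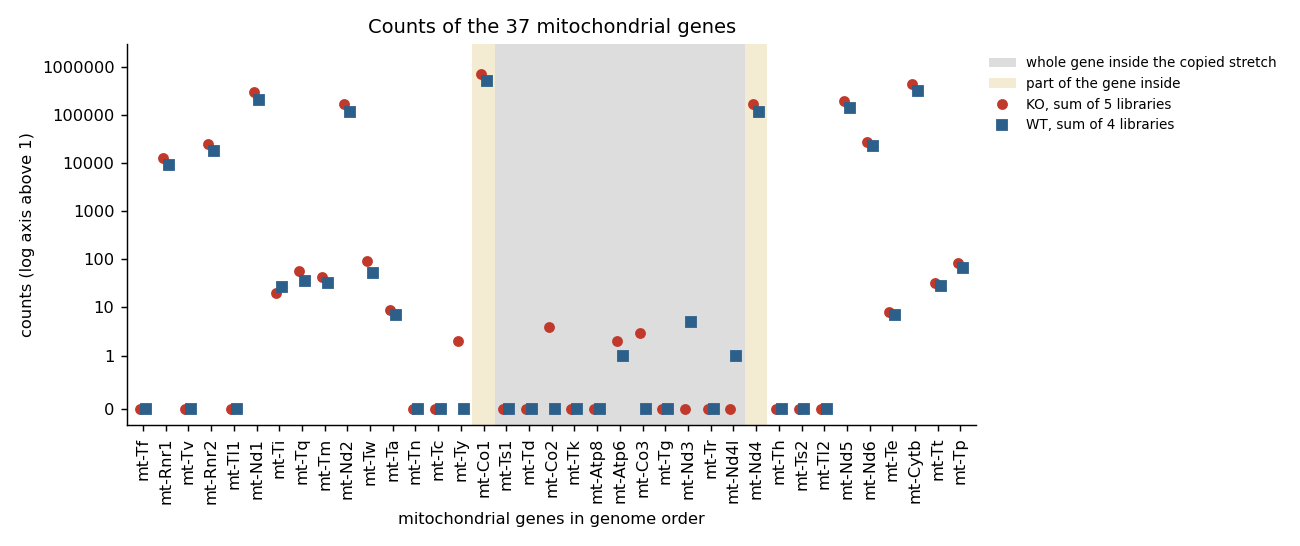
Counts of the 37 mitochondrial genes, in genome order from left to right, summed over the 5 KO libraries (circles) and the 4 WT libraries (squares), on an axis that is logarithmic above 1. Grey marks genes wholly inside the stretch copied to chromosome 1, where no gene exceeds 5 counts in all, and pale yellow marks mt-Co1 and mt-Nd4, which lie partly inside it.

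Gm28438 was the member that passed the test between the genotypes, and its KO libraries all stood above all WT libraries. It had 27, 39, 18, 42 and 43 counts in KO 1 to KO 5, against 2, 0, 0 and 2 counts in WT 1 to WT 4. Its level was 5.32, 6.35, 2.96, 7.58 and 7.35 CPM in KO 1 to KO 5, against 0.465, 0, 0 and 0.448 CPM in WT 1 to WT 4. No WT library reached 3 counts, the limit used for a count of 0, and all KO libraries exceeded it. Gm28438 therefore passed the filter on low counts through its KO libraries alone. The log2 fold change was 4.69 ± 0.61 (SE; edgeR quasi-likelihood test, Benjamini-Hochberg adjusted p = 0.0185 over 14665 genes) for the fragments counted on Gm28438. Of all genes tested, 0.0546 percent were called higher in KO, and 1.44 percent had every KO library above every WT library. This difference was known from earlier results when the members were chosen. When single libraries were left out, 6 of 9 omissions (KO 1, KO 2, KO 4, KO 5, WT 2 or WT 3) ended the call with edgeR, with adjusted p of 0.0543 to 0.0658, while the log2 fold change was 4.22 to 5.26. The size of this fold rests on 4 counts in WT.

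Its source gene mt-Nd3 had 0 counts in each of the 5 KO libraries and 2, 0, 1 and 2 counts in WT 1 to WT 4. These counts fell under the filter on low values, and no test was made. Added over the libraries, the pair had 169 counts on the copy and 0 on mt-Nd3 in KO, against 4 on the copy and 5 on mt-Nd3 in WT. As background, position 9461 is known as a base at which inbred mouse strains differ, with T in the C57BL/6J reference. The base that the counted fragments carried was not read here, and whether the fragments counted on Gm28438 came from the copy or from mt-Nd3 was not tested.

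Within KO, Gm28438 varied less between libraries per mitochondrial mRNA count than in CPM. Per 100000 counts on mitochondrial mRNAs, Gm28438 had 8.19, 9.68, 7.51, 8.80 and 7.58 counts in KO 1 to KO 5, against 1.25, 0, 0 and 0.295 counts in WT 1 to WT 4. The highest KO value was 1.29 times the lowest on this scale, against 2.57 times in CPM. KO 3 was lowest among the KO libraries on both scales. Both scales use the same Gm28438 counts, so the gap between KO and WT on this scale is not a second result.

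**Figure D2:**
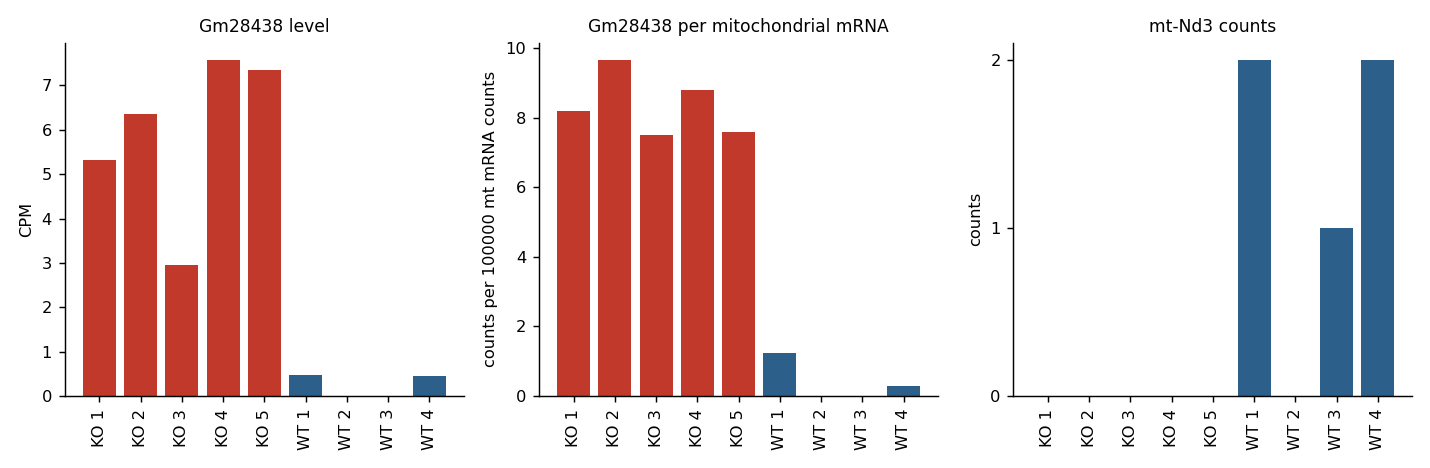
Level of Gm28438 in CPM (left), its counts per 100000 mitochondrial mRNA counts (middle) and counts of its source gene mt-Nd3 (right), with 1 bar per library, KO in red and WT in blue. The KO libraries lie at 7.51 to 9.68 in the middle panel, above the highest WT value of 1.25, and all 5 KO libraries are at 0 for mt-Nd3.

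The other 6 copies were at the edge of detection and were too low to test. Together they had 12, 16, 11, 17 and 18 counts in KO 1 to KO 5, against 9, 8, 11 and 26 counts in WT 1 to WT 4. Per 100000 mitochondrial mRNA counts this was 3.79 ± 0.53 in KO (SD, n = 5) and 3.97 ± 1.24 in WT (SD, n = 4), a difference smaller than the spread in either group. Gm10222, the copy of mt-Nd4l that lies next to Gm28438, had 3, 2, 2, 3 and 2 counts in KO 1 to KO 5, against 1, 0, 0 and 0 in WT 1 to WT 4. Its KO libraries also all lay above its WT libraries. This held for 1.44 percent of the genes tested, to which Gm10222 does not belong. No library exceeded 3 counts, the limit used for a count of 0. With no count filter the edgeR log2 fold change of Gm10222 was 2.56 ± 0.97 (SE; unadjusted p = 0.0157, adjusted p = 0.729 over 29228 genes). Gm28437, the copy of mt-Co3, had 10 counts in WT 4 and at most 2 in each of the other libraries. With no count filter its estimate had the opposite sign, at -1.49 ± 0.82 (SE; edgeR unadjusted p = 0.0857, adjusted p = 0.730). Gm29216 had 3 to 5 counts in the KO libraries and 2 to 9 in the WT libraries. Gm28661 had 1 to 6 counts in KO and 1 to 4 in WT, Gm10925 had 0 to 3 in KO and 1 to 4 in WT, and Gm28439 had 0 to 4 in KO and 0 to 2 in WT.

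The share of gene counts taken by all mitochondrial genes together differed between the groups by less than the spread within either. Their share was 6.74, 6.58, 4.31, 8.81 and 9.87 percent in KO 1 to KO 5, against 3.69, 6.42, 5.17 and 13.6 percent in WT 1 to WT 4. The mean was 7.26 ± 2.16 percent in KO (SD, n = 5) and 7.22 ± 4.39 percent in WT (SD, n = 4), and all KO values lay within the range of WT. WT 4 was the highest and WT 1 the lowest of all 9 libraries. Without WT 4 the WT mean was 5.09 ± 1.37 percent and KO exceeded it by 2.17 percentage points, and without WT 1 KO lay 1.13 points below WT (-1.13). No test was made of this sum. In bulk tumor RNA, fewer cells rich in mitochondria and less mitochondrial RNA per cell cannot be told apart.

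The libraries with the 3 lowest mitochondrial shares and the 1 with the highest were also at the ends of the mapping measures. WT 1, KO 3 and WT 3 had the 3 lowest mitochondrial shares and also the 3 lowest shares of unmapped fragments, at 12.2, 10.99 and 15.2 percent. WT 4 was the highest on both, with 27.1 percent of its fragments unmapped, and the remaining libraries lay at 19.7 to 21.8 percent. Among these the order differed between the measures. WT 2 exceeded KO 5 in unmapped fragments, at 21.1 against 20.4 percent, with a lower mitochondrial share, at 6.42 against 9.87 percent. WT 1, KO 3 and WT 3 also had the lowest shares of multimapping fragments, at 5.50 to 6.04 percent, and WT 4 again the highest, at 9.53 percent. The part of mapping in the mitochondrial share was not tested. Markers of skeletal muscle and brown fat summed to 65.3 to 137 CPM in KO and 40.7 to 115 CPM in WT. WT 4, at 51.0 CPM, was below every library but WT 1. Most of this sum was the muscle myosin Myh4, at 51.6 to 114 CPM in KO and 21.9 to 98.0 CPM in WT. Ckm, Acta1 and Mylpf stood at no more than 16.5 CPM in any library, so the sum is largely the level of Myh4. All 5 of these markers were detected, with Ucp1 at no more than 1.03 CPM in a KO library and 0.836 CPM in a WT library.

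**Figure D3:**
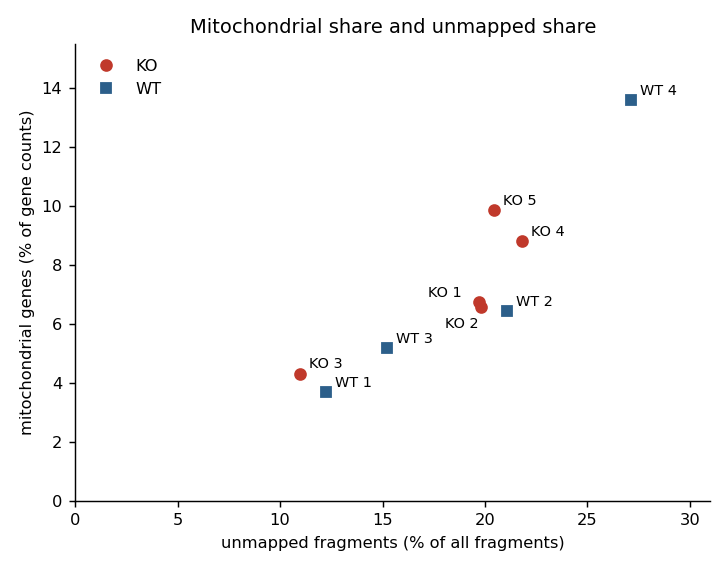
Share of gene counts on mitochondrial genes (vertical axis, percent) against the share of unmapped fragments (horizontal axis, percent of all fragments), with 1 point per library, KO as circles and WT as squares. KO 3, WT 1 and WT 3 sit at the lower left and WT 4 at 27.1 and 13.6 percent at the upper right.

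None of the 7 mRNAs that could be counted passed the test between the genotypes, with edgeR, DESeq2 or limma-voom, and none had an unadjusted edgeR p under 0.05. The 13 members that passed the filter on low counts were these 7 mRNAs, both rRNAs, 3 tRNAs and Gm28438, and the other 31 were not tested. The 7 log2 fold changes lay between -0.28 and -0.05, with adjusted p of 0.884 to 0.984 (edgeR), beside a median of -7.8e-05 over all genes tested. Their signs depended on the setting, since 6 of 7 turned positive with limma-voom, 4 with library totals as the only scaling and all 7 without WT 4. Without WT 4 they were 0.32 to 0.54, with adjusted p of 0.601 to 0.777. All 7 were highest in WT 4, while 5 were lowest in WT 1 and 2 in KO 3, and the highest library stood 4.02 to 5.85 times above the lowest.

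Cytochrome c oxidase was represented by mt-Co1, the catalytic subunit, at positions 5328 to 6872 of the mitochondrial genome. It stood at 23330.5, 22505, 13956, 30686 and 36268 CPM in KO 1 to KO 5, against 14405, 22033, 16425 and 56433 CPM in WT 1 to WT 4. The groups overlapped, with WT 4 above every KO library and WT 1 close to KO 3. The estimated log2 difference was -0.11 ± 0.41 (SE; edgeR adjusted p = 0.959). The other subunits of this enzyme encoded in mitochondria, mt-Co2 and mt-Co3, lie inside the copied stretch.

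Complex III is represented in the mitochondrial genome by mt-Cytb (14145 to 15288), which encodes cytochrome b. Its level was 14128, 13778, 8476, 18918 and 20672 CPM in KO 1 to KO 5, against 8145, 13799.5, 10600.5 and 32852 CPM in WT 1 to WT 4. All KO libraries lay between WT 1 and WT 4, and the difference on the log2 scale was -0.11 ± 0.40 (SE; edgeR adjusted p = 0.958).

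Core subunits of complex I, the NADH dehydrogenase, are encoded by the mt-Nd genes, of which 5 could be counted. mt-Nd1 (2751 to 3707) stood at 9976, 10889, 5621, 12612 and 13289.5 CPM in KO 1 to KO 5, against 4887, 10158, 7124 and 21133 CPM in WT 1 to WT 4. mt-Nd2 ranged from 3402 to 7726 CPM in KO and 2757 to 12467 CPM in WT, and mt-Nd5 from 3879 to 9339 CPM in KO and 3515 to 14121 CPM in WT. mt-Nd4 ranged from 3623 to 8238 CPM in KO and 2969 to 12184 CPM in WT. For each of these genes the KO range lay within the WT range. Their log2 fold changes were -0.05 for mt-Nd1, -0.07 for mt-Nd2, -0.05 for mt-Nd4 and -0.08 for mt-Nd5, with standard errors of 0.38 to 0.40.

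mt-Nd6 (13552 to 14070) is the mRNA encoded on the opposite strand from the others. It stood at 875, 1003, 403, 1137 and 1407 CPM in KO 1 to KO 5, against 579, 1046, 694 and 2359.7 CPM in WT 1 to WT 4. Its log2 difference was -0.28 ± 0.43 (SE; edgeR adjusted p = 0.884), smaller than the error. As a share of the counts of the 7 mRNAs, mt-Nd6 made up 1.35, 1.53, 1.02, 1.32 and 1.45 percent in KO 1 to KO 5, against 1.55, 1.63, 1.46 and 1.56 percent in WT 1 to WT 4. KO 2 lay inside the WT range and the other 4 KO libraries lay below it. Its last 14 bases overlap the end of mt-Nd5 on the other strand, and the sources used here do not state which strand was counted.

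The makeup of the mitochondrial mRNA pool was compared as shares of the counts of the 7 mRNAs. mt-Co1 made up 35.7 ± 1.13 percent in KO and 36.2 ± 2.14 percent in WT (SD, n = 5 and 4). mt-Cytb made up 21.5 ± 0.376 percent in KO and 21.8 ± 0.353 percent in WT, and mt-Nd5 9.71 ± 0.181 percent in KO and 9.76 ± 0.468 percent in WT. Each of these 3 differences was smaller than the SD of either group. mt-Nd4 made up 8.48 ± 0.447 percent in KO and 8.22 ± 0.253 percent in WT, a difference larger than the SD of WT but not that of KO. For mt-Nd6 the means were 1.33 ± 0.192 percent in KO and 1.55 ± 0.069 percent in WT, a difference larger than either SD. No test was made of these shares. Levels were compared between genes per kilobase of sequence outside the copied stretch, although a fragment that crosses its edge is still counted. Windows of 50 bases shared with genes outside the chromosome 1 copies, 335 in mt-Co1, 81 in mt-Nd2 and 135 in mt-Nd5, were not taken out. On that scale mt-Co1 was first in all 9 libraries, at 24073 ± 8082 CPM per kilobase in KO and 25949 ± 18682 CPM per kilobase in WT. mt-Cytb was the next in all 9 libraries, at 13282 ± 4196 CPM per kilobase in KO and 14291 ± 9828 CPM per kilobase in WT. mt-Nd4, at 11863 ± 3636 CPM per kilobase in KO and 12241 ± 8259 CPM per kilobase in WT, stood above mt-Nd1 in 7 libraries and below it in 2. mt-Nd2, mt-Nd5 and mt-Nd6 followed, with mt-Nd6 last in all 9 libraries, at 1860 ± 715 CPM per kilobase in KO and 2253 ± 1576 CPM per kilobase in WT. The gaps between the group means of mt-Cytb, mt-Nd4 and mt-Nd1 were smaller than the SD of each. That SD is the spread between libraries, whereas the order of the genes was read within each library. Over the whole length of the gene mt-Nd4 would stand lower, at 4321 CPM per kilobase in KO and 4459 CPM per kilobase in WT.

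**Figure D4:**
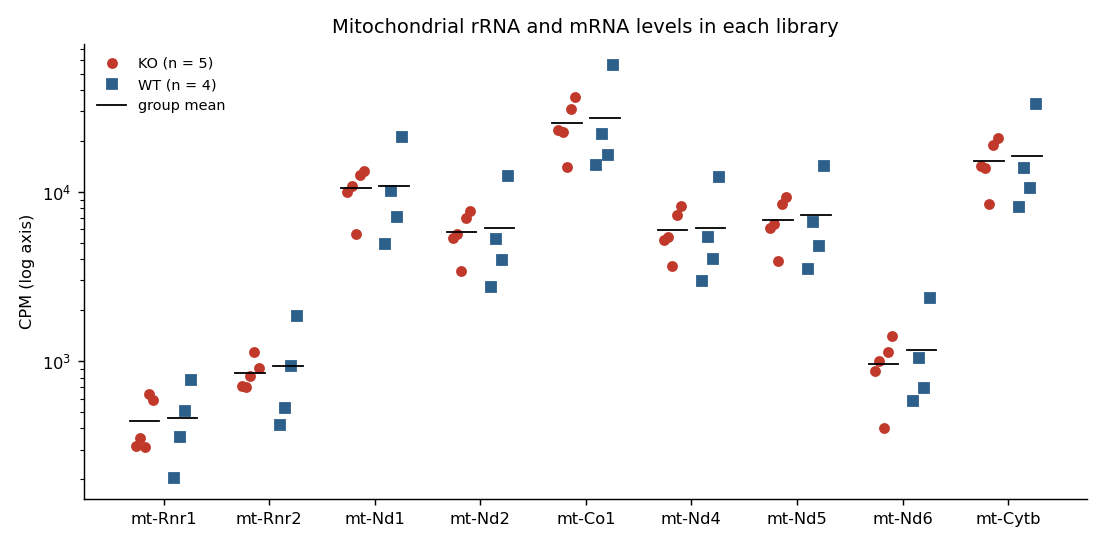
Levels of the 2 rRNAs and the 7 countable mRNAs of the mitochondrial genome in each library, in CPM on a logarithmic axis, with KO as circles, WT as squares and a line at each group mean. In every gene WT 4 is the highest point, and the KO points lie within the range of the WT points except mt-Co1 and mt-Nd6 in KO 3, which are the lowest of their genes.

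The rRNAs of the mitochondrial ribosome did not pass the test between the genotypes, and since the libraries were depleted of ribosomal RNA, their counts do not give their abundance in the tumors. mt-Rnr2, the large rRNA (1094 to 2675), stood at 716, 707, 821, 1131 and 907 CPM in KO 1 to KO 5, against 421, 526, 931 and 1849.8 CPM in WT 1 to WT 4. mt-Rnr1, the small rRNA (70 to 1024), ranged from 309 to 637 CPM in KO and 203 to 775 CPM in WT. WT 4 was highest and WT 1 lowest for both, with all KO libraries in between. The log2 fold changes were -0.12 ± 0.37 for mt-Rnr2 and -0.06 ± 0.36 for mt-Rnr1 (SE; edgeR adjusted p = 0.951 and 0.975). Per 100 mRNA counts the rRNAs had 1.55 to 2.87 counts in KO and 1.37 to 3.02 counts in WT, with KO 3 and WT 3 the highest of their groups.

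Mitochondrial tRNAs had few counts. Of the 22, 13 had 0 counts in every library and the other 9 had 605 counts in all, 351 in KO and 254 in WT. The most abundant, the proline tRNA mt-Tp, had 18, 20, 14, 11 and 23 counts in KO 1 to KO 5, against 8, 17, 12 and 29 counts in WT 1 to WT 4. The tryptophan tRNA mt-Tw had 92 counts in KO and 51 in WT, and the glutamine tRNA mt-Tq 58 in KO and 36 in WT. Their log2 fold changes were -0.20 ± 0.39 for mt-Tp, 0.27 ± 0.46 for mt-Tw and 0.10 ± 0.60 for mt-Tq (SE; edgeR adjusted p = 0.917, 0.896 and 0.977), each smaller than its error.

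Nuclear genes of respiratory complexes I to V were not called either, though most of their estimates were negative. Of 79 subunits listed, with the ATP synthase inhibitor Atpif1 counted among them, 76 were tested and edgeR called 0. Of all genes tested, 0.0886 percent were called in either direction and 0.0341 percent were called lower in KO. DESeq2 and limma-voom called 0 as well. An unadjusted p under 0.05 was found for 10 of the 76, all with lower levels in KO, and for 7.95 percent of all genes. Negative log2 fold changes were found for 66 of the 76 and for 7335 of 14665 genes overall. Their median was -0.15, and -0.09 without WT 1, -0.09 with library totals as the only scaling and -0.23 with age as a covariate. By complex, 28 of 36 were negative for complex I (median -0.13), 4 of 4 for complex II (-0.26), 9 of 9 for complex III (-0.13), 11 of 11 for complex IV (-0.26) and 14 of 16 for complex V (-0.18). Without WT 1 the medians were nearer 0 for complex I, at -0.07 with 24 of 36 negative, and for complex IV, at -0.12 with 10 of 11 negative. Summed over the listed subunits the level was 3147, 2826, 3279, 3007 and 3517 CPM in KO 1 to KO 5, against 4135, 3516, 3543 and 3226 CPM in WT 1 to WT 4, and the groups overlapped.

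Cox5a, a structural subunit of cytochrome c oxidase, had the smallest p among these genes. It stood at 16.6 to 20.5 CPM in KO and 22.9 to 27.8 CPM in WT, so that all KO libraries lay below all WT libraries, as for 5 of the 76 subunits and 1.26 percent of all genes. Groups that do not overlap in either direction were found for 2.7 percent of all genes. Its log2 fold change was -0.39 ± 0.12 (SE; edgeR adjusted p = 0.613). Ndufa4, which is now counted to the same complex, had -0.50 ± 0.20. For complex I, Ndufa1 had -0.70 ± 0.25 and Ndufc1 -0.38 ± 0.16, and for complex II, the membrane anchors Sdhd and Sdhc had -0.37 ± 0.15 and -0.32 ± 0.16. The Rieske iron-sulfur protein Uqcrfs1 of complex III had -0.38 ± 0.15 and Uqcr11 -0.26 ± 0.13, and for ATP synthase Atp5e had -0.41 ± 0.15 and Atp5g3, a subunit c gene, -0.32 ± 0.12. The adjusted p of all these genes was 0.613 to 0.647. Markers of luminal epithelium had negative estimates for 8 of 8 and fibroblast markers for 6 of 6. The fibroblast markers summed to 186 to 408 CPM in KO and 525 to 732 CPM in WT. Most of that sum was Col1a1 and Col1a2, whose KO libraries all lay below all WT libraries, as for 1.26 percent of all genes. The groups overlapped for Dcn, Lum, Pdgfra and Pdgfrb. Estimates were also negative for 5 of 5 markers of endothelium, 4 of 4 of macrophages, 5 of 5 of red cells, 4 of 6 of myoepithelium and 8 of 8 of the dissociation and stress response. They were positive for 3 of 3 tested markers of skeletal muscle and brown fat and for 2 of 3 of adipocytes. The part of cell makeup in the nuclear estimates was not tested.

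Genes that copy, transcribe and process mitochondrial DNA and RNA gave medians close to 0, whose sign turned when 1 library was left out. Of 13 genes for mitochondrial DNA replication and transcription none was called and 5 were negative, with a median of 0.03. Without KO 3 and without WT 3, 8 of the 13 were negative, with medians of -0.0093 and -0.0038, and without KO 5 the median was 0.09. Tfam, which packages mitochondrial DNA and starts its transcription, had -0.20 ± 0.15 (SE), and Mterf4 had 0.15 ± 0.13. Of 20 genes for RNA processing, stability and decay none was called and 7 were negative, with a median of 0.04. Without WT 4, 13 of the 20 were negative with a median of -0.05, and without KO 3, 11 were negative with a median of -0.03. Among them the exoribonuclease Pnpt1 had 0.32 ± 0.22 and Ptcd2 -0.21 ± 0.14. For the mitochondrial ribosome 77 of 78 protein genes were tested, none was called and 50 were negative, with a median of -0.06, which was -0.02 without WT 1, -0.03 without KO 2 and -0.10 without WT 4. Mrpl9 had -0.36 ± 0.13 and Mrps14 -0.31 ± 0.14.

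Regulators of mitochondrial biogenesis had 5 positive estimates of 7, with a median of 0.12 and 0 called, and the median was 0.04 without WT 1 and 0.05 without KO 1. The coactivator Ppargc1a, known as PGC-1alpha, stood at 6.30, 12.5, 5.58, 11.7 and 10.9 CPM in KO 1 to KO 5, against 4.65, 3.34, 5.98 and 6.71 CPM in WT 1 to WT 4. KO 1 and KO 3 lay within the WT range and the other 3 KO libraries above it. The log2 fold change was 0.86 ± 0.31 (SE; edgeR adjusted p = 0.616, unadjusted p = 0.0178). The transcription factor Nrf1 had 0.20 ± 0.13.

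**Figure D5:**
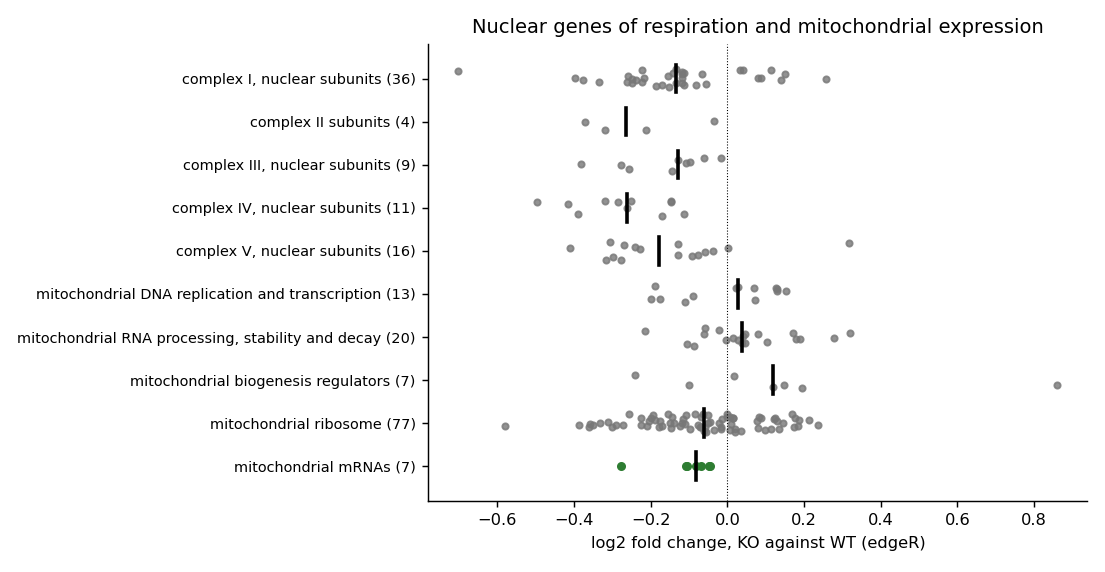
Log2 fold changes of KO against WT (edgeR, horizontal axis) for the nuclear genes in each list, with 1 point per gene, and for the 7 mitochondrial mRNAs, with a black bar at each median and the number of genes in brackets. Medians of the respiratory complexes lie between -0.26 and -0.13 and those of the lists for replication, RNA processing and biogenesis between 0.03 and 0.12 with all 9 libraries.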

How the data were processed

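The deposited table holds unnormalized counts per gene and library, with 4 entries for fragments counted on no gene, laid out as STAR writes its gene counts. The submitters' processing notes name STAR 2.5.4a, Trimmomatic 0.36, FastQC 0.11.5 and build GRCm38. The sources used here do not state their settings, the strand counted or the annotation release.

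Symbols, positions and transcript sequences were taken from GENCODE M21 (GRCm38), which named 55141 of 55401 mouse gene identifiers. Each copy was aligned to the mitochondrial transcripts without gaps, and windows of 50 bases were compared. Entries that name no gene (10.99% to 27.1% of fragments unmapped, 5.50% to 9.53% multimapping, 34.0% to 50.4% on no feature and 0.971% to 1.23% ambiguous) stayed out of library sizes and tests.

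KO was tested against WT by the two-sided quasi-likelihood test (glmQLFit, glmQLFTest) of edgeR 4.0.16 under R 4.3.3. The model held genotype alone, with TMM scaling and edgeR's filterByExpr. Adjusted p-values under 0.05 over 14665 genes were called. The SE is the log2 fold change over the square root of F. CPM values divide by the tested genes' total and the TMM factor, and floors by the total of all genes. The fits were tested on simulated data with known changes. DESeq2 1.42.0, limma-voom in limma 3.58.1, other scalings, filters and covariates and the omission of single libraries were tried.

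The members and lists were chosen with earlier results of these data known, so no test was made over the members as a list. Every member is accounted for, and nuclear genes are named as those called or the 2 with the smallest p per list. No 2 libraries of a group agreed within sampling noise.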

Additional observations from a re-analysis of the deposited data

Results flagged for a closer look

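mt-Nd2 made up 7.40 percent of the counts of the 7 mitochondrial mRNAs in WT 1. The nearest of the other WT libraries stood at 8.22 percent, so that WT 1 lay far from the rest of its group. This was the only such case among 46 groups of values examined for the tested members, their shares and their ratios, where chance gives about 1 in 20.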

How the results depend on the processing

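Gm28438 was called in every fit with all 9 libraries that tested it, with log2 fold changes of 4.58 to 4.83 and adjusted p of 2.08e-06 (DESeq2) to 0.0477 (library number as a block). It was also called without WT 1 and WT 4 (adjusted p = 0.0279), where the fitted log2 value of 8.06 ± 1.01 is set against 0 counts in WT 2 and WT 3 and is no measure of the fold. A mean count of at least 50 removed it from the genes tested, leaving 0 members called. With 1 library left out, 0 to 1 members were called, 6 to 13 genes in all and 0 pathway genes. The number of genes called was 13, against 68 with DESeq2, 29 with no count filter and 6 with means of 50 counts or more. No alternative called a mitochondrial gene or a nuclear gene of the pathway lists. The mitochondrial share differed by 0.043 percentage points (KO minus WT), and by -1.13 to 2.17 with 1 library left out, the ends being WT 1 and WT 4. The log2 fold changes with 1 library left out were -0.31 to 0.30 for mt-Rnr1, -0.36 to 0.45 for mt-Rnr2, -0.29 to 0.50 for mt-Nd1, -0.31 to 0.54 for mt-Nd2, -0.32 to 0.52 for mt-Co1, -0.27 to 0.52 for mt-Nd4, -0.31 to 0.46 for mt-Nd5, -0.50 to 0.32 for mt-Nd6, -0.33 to 0.48 for mt-Cytb, -0.29 to 0.57 for mt-Tq, 0.032 to 0.89 for mt-Tw and -0.40 to 0.28 for mt-Tp, mostly with WT 1 and WT 4 at the ends. For Gm28438 they were 4.22 to 5.26. Signs turned, to 0.029 (mt-Rnr1), 0.10 (mt-Rnr2), 0.11 (mt-Nd1), 0.12 (mt-Nd2), 0.047 (mt-Co1), 0.11 (mt-Nd4), 0.058 (mt-Nd5) and 0.044 (mt-Cytb) with limma-voom, to 0.013 (mt-Rnr1), 0.048 (mt-Nd1), 0.032 (mt-Nd2), 0.053 (mt-Nd4) and 0.014 (mt-Nd5) with library totals only, and to 0.071 (mt-Nd1) and 0.0012 (mt-Nd4) with age as a covariate. Without WT 1 and WT 4 they turned to 0.023 (mt-Rnr1), 0.23 (mt-Rnr2), 0.27 (mt-Nd1), 0.33 (mt-Nd2), 0.39 (mt-Co1), 0.33 (mt-Nd4), 0.26 (mt-Nd5), 0.15 (mt-Nd6), 0.31 (mt-Cytb) and 0.13 (mt-Tp). The cause was not tested. Library numbers are shared between groups but not said to pair animals, and deviations of same-numbered libraries correlated at -0.024 to 0.39, over 0.1 in 3 of 4 pairs. A block for the number called 10 genes in all and 1 member, and turned signs to 0.076 (mt-Rnr2), 0.0050 (mt-Nd1) and -0.068 (mt-Tq). Counts of 0 limit the copies, most tRNAs and the genes inside the copied stretch.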

Other observations

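WT 1, KO 3 and WT 4 had the highest counts on genes whose symbol begins with Csn, at 71165, 55453 and 54977. These are the caseins together with casein kinase genes, and the counts were not scaled to library size. The mitochondrial shares of these libraries were, in the same order, the lowest, the next lowest and the highest of the 9 libraries. The share of fragments on no annotated feature was highest in KO 3, at 50.4 percent, and lowest in WT 4, at 34.0 percent. The ratio of summed mitochondrial mRNA to summed nuclear subunit levels in CPM was 20.6, 23.2, 12.0, 28.7 and 27.6 in KO 1 to KO 5, against 9.01, 18.3, 13.4 and 47.0 in WT 1 to WT 4, so that the groups overlapped.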
